A study of Mus musculus with 4 samples.

Results

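The threonine, glycine and folate enzymes of mouse embryonic stem cells (ESC) were described in 4 RNA-seq libraries. The 9 genes Tdh, Gcat, Gldc, Amt, Shmt1, Shmt2, Mthfd1, Mthfd2 and Tyms were taken by symbol from the expression profiles, which list 28250 genes. Of the 9, 8 are listed and entered the fit over all genes, and Gcat is not listed and was followed in the alignments alone. The lower value of Tdh with MS-275 was part of the reason for choosing these genes, so their difference between the conditions is described here without a test. TBV2, an ESC line kept on feeder cells with LIF, received solvent or 5 µM MS-275, an inhibitor of class I histone deacetylases, for 24 h. Which vehicle the controls received is not settled, since the study's text gives DMSO and the control alignments carry the tag ETOH, and they are called solvent here. Each condition has 2 libraries (replicates 1 and 2), made from poly(A)-selected RNA of the whole culture. The labels do not say whether replicates were separate cultures, so any p-value measures only the spread between these libraries.

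Threonine dehydrogenase, encoded by Tdh, oxidizes threonine in mitochondria, and glycine C-acetyltransferase, encoded by Gcat, splits the product into glycine and acetyl-CoA. The glycine cleavage system, which includes Gldc and Amt, and the serine hydroxymethyltransferases Shmt1 and Shmt2 pass carbon from glycine and serine to tetrahydrofolate, and the Mthfd enzymes and Tyms carry it on towards purines and thymidylate. Mouse ESC are known for high Tdh and for a need of threonine in the medium.

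The libraries differed between replicates as well as between conditions. In the headers of the authors' tables, the replicate 1 columns of solvent and MS-275 carry the tag OLD, and the pairs below are made by replicate number. The alignments deposited with replicate 1 held 23467935 positions with solvent and 20008841 with MS-275, of which 53.2% and 54.4% repeated a position and strand already listed. Those deposited with replicate 2 held 9785619 and 10915650 with no repeats. The alignments matched the values of the other replicate number. Over the 8 listed enzymes, the log2 ratio of the values of pair 1 differed from that of the alignments of pair 2 by 0.0607 on average, and from that of the alignments of pair 1 by 0.497. Mitochondrial ND6, likewise, had a value of 1.63 and 1.43 in the replicate 1 libraries and 0 in replicate 2, whereas alignments to the mitochondrial genome, 13431 and 13889, were present only in the files of replicate 2. The condition of a file is the same either way, and the alignments are named here by the replicate they were deposited with.

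The Tdh transcript was lower with MS-275 in both pairs. Its normalized expression value, a signal made with Genomatix and not a read count, was 0.665 and 1.57 with solvent (replicates 1 and 2) and 0.310 and 0.164 with MS-275. Both MS-275 libraries lay below both solvent libraries. Solvent gave a mean of 1.12 ± 0.639 and MS-275 one of 0.237 ± 0.103 (SD, n = 2). With MS-275 the value stood at 46.6% of solvent in pair 1 and at 10.5% in pair 2, so the direction was shared and the size was not. The log2 fold change was -2.15 with a standard error of 0.59, and without a single library in turn it ranged from -2.77 (without solvent replicate 1) to -1.54 (without solvent replicate 2). In RNA of whole cultures, fewer cells with a transcript and less of it per cell cannot be told apart.

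**Figure D1:**
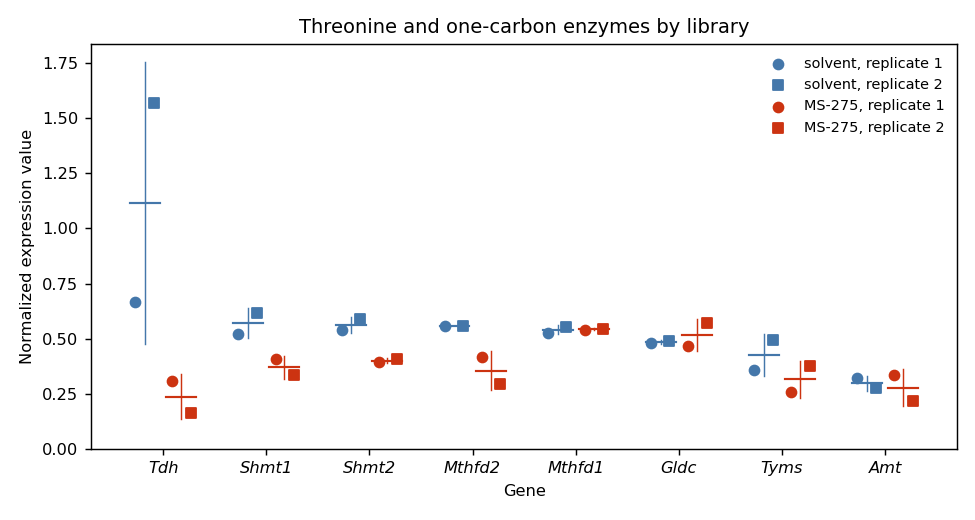
Normalized expression value (vertical axis) of the 8 listed enzymes in each library; circles are replicate 1 and squares replicate 2, blue is solvent and red MS-275, with the group mean as a horizontal line and the SD as a vertical line. Tdh spans 0.665 to 1.57 with solvent and 0.164 to 0.310 with MS-275, while Mthfd1 lies between 0.526 and 0.555 in all 4 libraries.

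The cells carried ESC transcripts in both conditions, and these were lower with MS-275. All 10 ESC markers examined, among them Pou5f1, Nanog and Sox2, were lower with MS-275 in both pairs, with a median log2 fold change of -0.65. Of the 20336 genes tested, 26.5% were lower in both pairs, and 39.4% of those with a mean value of at least 0.2. In pair 1 the markers ranged from 48.4% of solvent for Tcl1 to 92.6% for Sox2, 95.8% for Zfp42 and 99.9% for Dppa5a. In pair 2 they ranged from 18.2% for Utf1 and 21.9% for Esrrb to 73.5% for Dppa5a and 85.6% for Nanog. Their summed value was 6.04 and 23.2 with solvent and 4.82 and 13.6 with MS-275, and 8 of the 10 stayed at 0.2 or more in every library. Pou5f1, the pluripotency factor Oct4, had values of 0.727 and 2.33 with solvent and 0.575 and 0.786 with MS-275. Of 9 markers of fibroblast feeders, 5 were higher in both pairs and 2 lower, Fap was under 0.001 in every library, and the sum went from 0.287 and 0.268 to 0.539 and 0.626. The 6 primitive endoderm markers were all higher in both pairs, as were 50% of the 20336 genes tested. All 6 stayed under 0.2 in every library, with sums of 0.120 and 0.0355 with solvent and 0.206 and 0.0612 with MS-275. The part of these cell populations in the Tdh result was not tested.

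Tdh lies on the minus strand of mm9 at chr14:64111184-64127929 with 9 exons in the longest coding transcript of GENCODE M1. The lower level was present in every exon that held more than 1 position. Distinct alignment positions in Tdh exons numbered 1146 and 1095 with solvent and 271 and 520 with MS-275, in the files of replicates 1 and 2. Per 1000000 distinct positions this was 28.4% of solvent in the files of pair 1 and 42.6% in those of pair 2. Counting every alignment, repeats included, the figure for pair 1 was 10.4%, next to the 10.5% of the values of pair 2. In distinct positions, which cannot count a site more than once and so compress high levels, the introns differed by more than the exons. The introns were counted in distinct positions alone, so the part of the compression in this gap was not tested. Their positions numbered 2017 and 1080 with solvent and 115 and 269 with MS-275, which is 6.86% and 22.3% of solvent. Introns therefore held 63.8% and 49.7% of the Tdh positions with solvent and 29.8% and 34.1% with MS-275. Each of the 8 introns had fewer positions with MS-275 in both pairs. Intron 8, the last one, held 274 and 203 with solvent and 15 and 33 with MS-275.

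**Figure D2:**
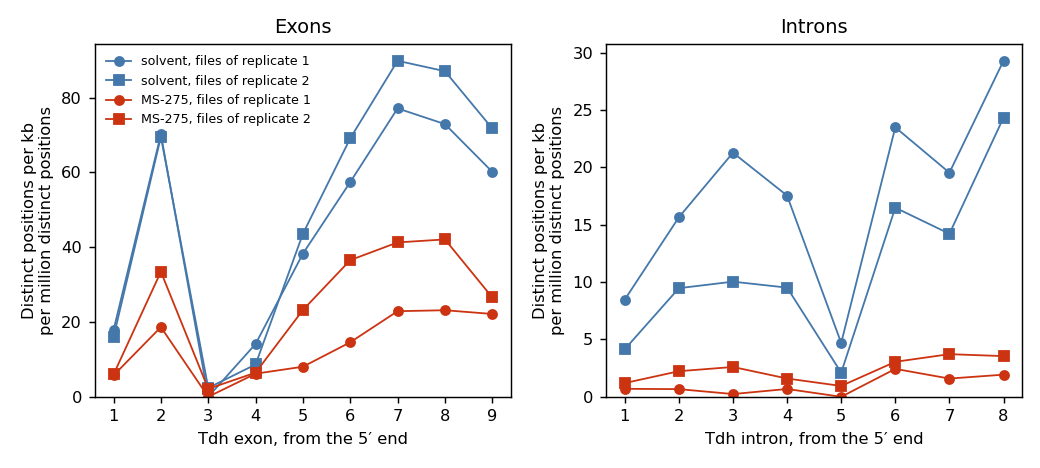
Distinct alignment positions per kb and per 1000000 distinct positions (vertical axis) in each of the 9 exons (left) and 8 introns (right) of Tdh, counted from the 5′ end; circles are the files of replicate 1, squares those of replicate 2, blue solvent and red MS-275. Both MS-275 lines lie below both solvent lines in every intron and in exons 1, 2 and 4 to 9, and exon 3 held at most 1 position in any library.

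Reads from Tdh could be mistaken for a processed copy. Of the 35-base windows of Tdh exons, 18.8% occur again elsewhere in mm9. The locus of the pseudogene Gm13929, which is on the plus strand of chromosome 2, holds 411 matches to these 427 windows. Exons 3 and 4 are 100% and 98.6% identical to it, and 100% and 94.6% of their windows are repeated. These exons held few or no positions. Exon 7, 91 coding bases, has no repeated window. It is printed beside the matching stretch of the copy to show how a read can be told apart, with the 4 bases that differ in capitals (Tdh at chr14:64113194-64113284, minus strand; Gm13929 at chr2:111840961-111841051, plus strand; both mm9, read 5′ to 3′).
Tdh exon 7: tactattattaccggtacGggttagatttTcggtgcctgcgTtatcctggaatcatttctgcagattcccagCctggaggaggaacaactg
Gm13929: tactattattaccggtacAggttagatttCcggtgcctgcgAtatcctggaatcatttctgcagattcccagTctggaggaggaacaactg
In this exon alone Tdh had 77 and 80 distinct positions with solvent and 19 and 41 with MS-275, which is 29.7% and 45.9% of solvent. The pseudogene itself held 211 and 180 positions with solvent and 41 and 78 with MS-275. Gm17232, an antisense transcript, overlaps Tdh on the other strand, and since the reads carry no strand, its reads and those of Tdh cannot be told apart where both lie. In its 387 exon bases outside Tdh exons it had 98 and 47 positions with solvent and 10 and 15 with MS-275. The neighbouring genes differed less. Mtmr9 had values of 0.247 and 0.187 with solvent and 0.251 and 0.172 with MS-275, and Fam167a had 0.0362 and 0.0186 with solvent and 0.0321 and 0.0119 with MS-275.

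Gcat, the partner of Tdh in the conversion of threonine to glycine, was not lower. Its exons (mm9 chr15:78861304-78873988, plus strand) held 426 and 445 distinct positions with solvent and 385 and 550 with MS-275. Per 1000000 distinct positions these were 109% and 111% of solvent in the files of pairs 1 and 2. After limma-voom scaling the log2 fold change was -0.01 with a standard error of 0.19. Its difference between the conditions was smaller than its error.

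Of the glycine cleavage enzymes, neither had values that were separate between the conditions. Gldc, the glycine decarboxylase that starts the cleavage (mm9 chr19:30172939-30249908), had values of 0.479 and 0.491 with solvent and 0.466 and 0.570 with MS-275. Amt, the aminomethyltransferase that hands the carbon to tetrahydrofolate (mm9 chr9:108199184-108203902), had 0.321 and 0.274 with solvent and 0.337 and 0.217 with MS-275. In both genes the 2 pairs went opposite ways. The log2 fold changes, 0.09 with a standard error of 0.49 for Gldc and -0.13 with 0.41 for Amt, were smaller than their errors, and that of Gldc was -0.09 with median-ratio scaling. Leaving out MS-275 replicate 2 turned both, to -0.06 for Gldc and 0.18 for Amt. Without MS-275 replicate 1 they were 0.23 and -0.44, and with 1 solvent library left out that of Amt was -0.02 (replicate 1 out) or -0.24 (replicate 2 out). The introns of Amt stood apart from its exons. They held 37 and 41 distinct positions with solvent and 103 and 73 with MS-275, whereas its exons held 459 and 442 with solvent and 346 and 528 with MS-275.

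Both serine hydroxymethyltransferases, which move a carbon between serine and glycine, were lower with MS-275. Shmt1, the cytosolic enzyme (mm9 chr11:60601606-60625220), had values of 0.522 and 0.618 with solvent and 0.408 and 0.333 with MS-275. Shmt2, the mitochondrial enzyme (mm9 chr10:126954195-126959491), had 0.538 and 0.588 with solvent and 0.393 and 0.407 with MS-275. The values of the conditions did not overlap in either gene. Shmt1 stood at 78.1% of solvent in pair 1 and 53.9% in pair 2, and its log2 fold change was -0.62 with a standard error of 0.47. Shmt2 was more even, at 73.0% and 69.3%, with a log2 fold change of -0.49 and a standard error of 0.47. In distinct exon positions Shmt1 was at 71.5% and 73.0% of solvent and Shmt2 at 80.8% and 72.1%. The introns of Shmt2 held 284 and 278 positions with solvent and 122 and 117 with MS-275. They were at 51.7% and 37.7% of solvent, below the exons in both pairs of files. Those of Shmt1, 1153 and 638 with solvent and 535 and 447 with MS-275, were at 55.8% and 62.8%. Counting every alignment, the exons in the files of pair 1 were at 53.9% for Shmt1 and 69.8% for Shmt2. A pseudogene on chromosome 7, Gm15544, shares 4.54% of the windows of Shmt2.

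The methylenetetrahydrofolate dehydrogenases differed from each other. Mthfd2, the mitochondrial enzyme (mm9 chr6:83255685-83267600), had values of 0.556 and 0.557 with solvent and 0.418 and 0.292 with MS-275. Its solvent libraries were almost the same, and both MS-275 libraries lay below them, at 75.1% and 52.5% in pairs 1 and 2. The log2 fold change was -0.66 with a standard error of 0.47, and it was -0.41 without MS-275 replicate 2. Mthfd1, which performs the step in the cytosol together with further folate activities on the same protein (mm9 chr12:77356219-77420807), had values of 0.526 and 0.555 with solvent and 0.539 and 0.546 with MS-275. These overlapped, with a log2 fold change of 0.01 and a standard error of 0.50, which became -0.17 with median-ratio scaling. Exon positions showed the same split, with Mthfd2 at 73.0% and 74.6% of solvent and Mthfd1 at 109% and 103%. In introns Mthfd2 was at 61.6% and 51.9% and Mthfd1 at 112% and 104%. With every alignment counted, the exons of Mthfd2 were at 52.2% in the files of pair 1, below its introns there.

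Tyms, the thymidylate synthase that uses the folate-bound carbon to make dTMP (mm9 chr5:30384742-30400157), was lower in each pair while its libraries overlapped. Its value was 0.359 and 0.495 with solvent and 0.256 and 0.374 with MS-275. The MS-275 library of replicate 2 lay above the solvent library of replicate 1, yet each was at 71.4% and 75.5% of the solvent library of its pair. The log2 fold change was -0.44 with a standard error of 0.45, and it was -0.67 without solvent replicate 1, -0.21 without solvent replicate 2, -0.17 without MS-275 replicate 1 and -0.71 without MS-275 replicate 2. Of its 35-base windows 24.6%, which is 1432, occur again in mm9. Their matches were spread over 72691 places. The place with the most, on chromosome 10, held 649 matches and has no annotated gene. A pseudogene listed as Tyms-ps had values of 0.0539 and 0.108 with solvent and 0.0456 and 0.0779 with MS-275.

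**Figure D3:**
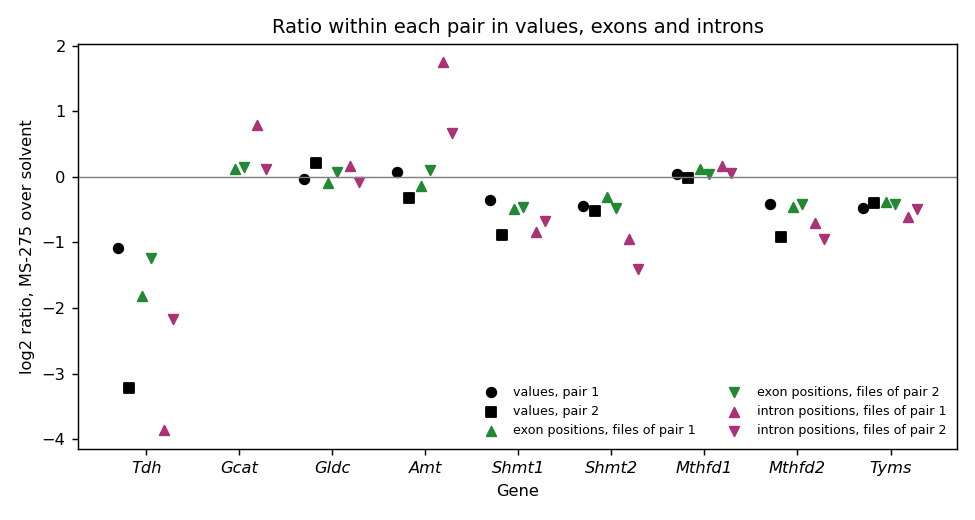
Log2 ratio of MS-275 over solvent (vertical axis) for the 9 enzymes within each pair, from the values (black), distinct exon positions (green) and distinct intron positions (purple) per 1000000 distinct positions. Tdh lies below -1 in all 6 ratios and is lowest, at -3.87, in the introns of the pair 1 files, Shmt1, Shmt2, Mthfd2 and Tyms lie below 0 in all 6, and the introns of Amt lie above 0.

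Counted over the members, 5 of the 8 listed enzymes (Tdh, Shmt1, Shmt2, Mthfd2 and Tyms) were lower in both pairs and 0 were higher, where 26.5% of the 20336 genes tested were lower in both pairs and 50% were higher. These shares depend on the level. The mean value of all 8 enzymes was 0.2 or more, a limit set after the values were seen. Of the 4543 genes that reached it, 39.4% were lower in both pairs and 34.3% were higher. The conditions did not overlap in 4 of the 8 (Tdh, Shmt1, Shmt2 and Mthfd2), all 4 lower, where 12% of the genes tested were lower and 32.3% higher without overlap, and 19.5% and 17.2% of those with a mean of at least 0.2. By a fold rule without a test, Tdh was the 1 member at least 2-fold lower in both pairs, a rule met by 2.04% of all genes and by 1.28% of those with a mean of at least 0.2. Since the members were chosen with this difference known, these counts are a description and nothing is read from them. Over the 20336 genes the log2 fold changes had a median of 0.20, which median-ratio scaling moved to 0.07 and quantile normalization to -0.02. At a mean value of at least 0.2 the median was 0.01.

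Levels between genes were compared per length, from distinct exon positions per kb and per 1000000 exon positions, because the values do not follow length alike in both replicates. Over genes, the log2 value changed by -0.73 and -0.75 per log2 unit of exon length in the replicate 1 libraries, at equal positions in the files they matched, and by -1.12 and -1.10 in those of replicate 2. With solvent, by this count, Mthfd1 was at 74.5 ± 6.81 (SD, n = 2), followed by Shmt2 at 72.1 ± 6.22 and Tdh at 65.2 ± 0.135. The libraries of Mthfd1 and Shmt2 overlapped, and those of Tdh, at 65.1 and 65.3, lay just under both. Mthfd2 at 59.8 ± 3.90 and Gldc at 58.9 ± 2.38 overlapped each other, and Shmt1 at 55.1 ± 1.09 lay below them. Amt was at 39.1 ± 0.296, and Gcat at 16.8 ± 1.09 and Tyms at 12.0 ± 0.830 were lowest, each without overlap with its neighbours. The figures of Gcat and Tyms are spread over long annotated exons, 3851 bases in Gcat. With MS-275, Tdh was at 23.4 ± 6.23, between Amt at 39.1 ± 4.22 and Gcat at 18.6 ± 1.14. The libraries of Tdh, at 19.0 and 27.8, overlapped those of Gcat, at 17.8 and 19.4. Distinct positions cannot count a site more than once, so they compress the highest levels, and the place of Tdh with solvent depends on this. With every alignment counted, per kb and per 1000000 alignments, Tdh was the highest of the 9 in solvent replicate 1, at 102 against 59.1 for Mthfd1 and 57.4 for Shmt2. In the files of solvent replicate 2, which hold no repeats, it was at 43.9, below Mthfd1 at 53.4 and Shmt2 at 51.5. With MS-275 Tdh was at 10.6 and 18.7 in the files of replicates 1 and 2, against 13.4 and 13.1 for Gcat. Mthfd1, at 59.7 and 55.1, was the highest in both.

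**Figure D4:**
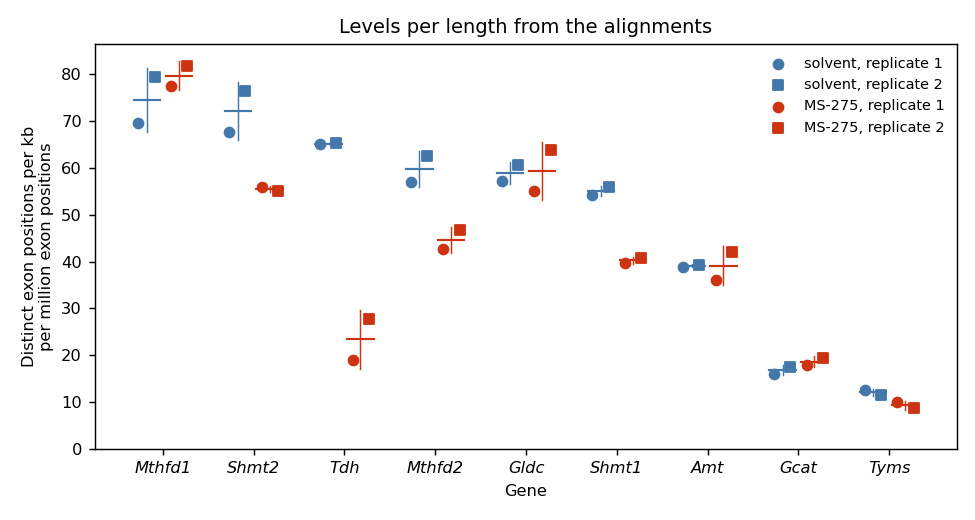
Distinct exon positions per kb and per 1000000 exon positions (vertical axis) for the 9 enzymes in each library, ordered by the solvent mean; circles are the files of replicate 1, squares those of replicate 2, blue solvent and red MS-275, with mean and SD as lines. Tdh is at 65.1 and 65.3 with solvent and at 19.0 and 27.8 with MS-275, and Gcat lies between 16.0 and 19.4 in all 4 libraries.

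Promoter sequences were read for 8 of the 9 enzymes from RefSeq on GRCm38.p6, and none was given for Tdh. The 250 bases before the start are printed for the 4 enzymes that were lower alongside Tdh, to show what letters they share. Capitals mark the motifs searched on both strands, CCAAT (which reads ATTGG on the other strand) and CACGTG, which do not overlap here. TGATGNAA and TTTNNCGC were searched as well.
Shmt1 (chr11:60811266-60811515, minus strand): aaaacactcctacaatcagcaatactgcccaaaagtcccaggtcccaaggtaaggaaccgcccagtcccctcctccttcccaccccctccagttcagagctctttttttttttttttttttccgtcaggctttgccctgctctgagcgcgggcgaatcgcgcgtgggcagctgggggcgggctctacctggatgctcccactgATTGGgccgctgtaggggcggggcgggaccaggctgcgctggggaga
Shmt2 (chr10:127522445-127522694, minus strand): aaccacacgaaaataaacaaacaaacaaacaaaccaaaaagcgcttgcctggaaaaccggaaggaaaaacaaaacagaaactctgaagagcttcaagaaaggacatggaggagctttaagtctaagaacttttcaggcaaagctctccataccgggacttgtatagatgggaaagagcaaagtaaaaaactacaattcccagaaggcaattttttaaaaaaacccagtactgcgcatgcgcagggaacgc
Mthfd2 (chr6:83317605-83317854, minus strand): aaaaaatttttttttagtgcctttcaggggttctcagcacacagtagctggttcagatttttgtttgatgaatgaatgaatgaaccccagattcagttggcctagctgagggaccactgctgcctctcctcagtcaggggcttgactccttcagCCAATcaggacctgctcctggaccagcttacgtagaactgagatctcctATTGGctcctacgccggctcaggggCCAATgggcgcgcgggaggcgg
Tyms (chr5:30073626-30073875, minus strand): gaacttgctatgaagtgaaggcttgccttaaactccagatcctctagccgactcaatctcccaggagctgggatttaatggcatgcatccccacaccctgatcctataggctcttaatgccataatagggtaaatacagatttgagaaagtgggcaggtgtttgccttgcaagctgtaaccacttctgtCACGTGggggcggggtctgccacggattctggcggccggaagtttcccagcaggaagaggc
CCAAT was present in 5 of the 8 promoters (Gldc, Amt, Shmt1, Mthfd1 and Mthfd2), and in 33.8% of 32851 promoters of the same length. In Mthfd2 it occurred 3 times, beginning 96, 47 and 22 bases before the start. CACGTG was present in Tyms and in 6.02% of promoters. TGATGNAA and TTTNNCGC, present in 3.45% and 4.28% of promoters, were in 0 of the 8. The window of Shmt2 held none of these letters. CCAAT was present in members that were lower and in members that were not.

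The wider pathway was followed in 10 lists of 60 other carriers and enzymes chosen by textbook role but with earlier results of these data known, of which 59 were listed and tested, all with limma and Benjamini-Hochberg adjustment over all genes. Without a block 0 of the 59 passed, and 0.00492% of all genes tested rose and 0 fell. At p under 0.05 before adjustment in this limma fit, 7 of the 59 stood higher and 4 lower, where 3538 of the 20336 genes were under it in either direction. With the replicate block, 9 rose and 8 fell, which is 15.3% and 13.6% of the 59, where 21% of all genes tested rose and 6.46% fell. The 9 that rose had mean values of 0.137 or less. At a mean value of at least 0.2, 0 of 26 rose and 4 fell, where 8.34% of all genes at that level rose and 8.28% fell. With the block and quantile normalization the split was 5 and 15, where 2828 of the 20336 genes rose and 2681 fell. On distinct positions without a block, limma-voom called 4 higher and 13 lower of 57, that is 7.02% and 22.8%, where it called 12.1% and 8.23% of genes. Each call below is from limma on the values with the replicate block unless another fit is named, and none of these passed on the values without it.

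Amino acid carriers were mostly lower, with 3 of 7 falling and 0 rising and a median log2 fold change of -0.81, where the median of all genes was 0.20, or 0.01 at a mean value of at least 0.2. Slc38a1, a carrier of glutamine and other neutral amino acids, had values of 0.264 and 0.332 with solvent and 0.151 and 0.102 with MS-275. It fell by 1.22 on the log2 scale (limma with the block, adjusted p = 0.00162). Slc6a9, the glycine transporter GlyT1, had 0.0665 and 0.0319 with solvent and 0.0203 and 0.00663 with MS-275 and fell by 1.58 (limma with the block, adjusted p = 0.00119). Slc3a2, the heavy chain that carries several amino acid exchangers to the membrane, also fell.

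Of the 5 genes of threonine use and serine dehydration, 3 rose and 0 fell, with a median of 1.29. Thnsl2, a threonine synthase-like protein, had values of 0.0406 and 0.0189 with solvent and 0.114 and 0.0575 with MS-275, a rise of 1.38 on the log2 scale (limma with the block, adjusted p = 0.00132). Sds, the serine dehydratase of liver, which also acts on threonine, had 0.00790 and 0.00366 with solvent and 0.0335 and 0.0216 with MS-275, a rise of 1.60 (adjusted p = 0.00113 in the same fit). The third was Sdsl, a relative of Sds, with a mean value of 0.00791. Tars, which had the highest mean value of the 5 (0.564), did not pass and was lower in both pairs. Its values were 0.603 and 0.726 with solvent and 0.501 and 0.426 with MS-275. On distinct positions limma-voom without a block called 1 of the 5, Thnsl2, higher. In serine synthesis 0 of 3 passed. Psat1, the phosphoserine aminotransferase, had values of 0.889 and 1.62 with solvent and 0.762 and 0.971 with MS-275, and Phgdh, the dehydrogenase that opens the path, had 0.0672 and 0.0663 with solvent and 0.0499 and 0.0558 with MS-275. The remaining members of the glycine cleavage system did not pass either. Gcsh, the carrier protein H, had 0.398 and 0.590 with solvent and 0.357 and 0.569 with MS-275, and Dld, the lipoamide dehydrogenase, had 0.461 and 0.601 with solvent and 0.452 and 0.672 with MS-275.

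In the cytosolic folate cycle 1 of 6 genes rose, Ftcd. Mthfs had values of 0.0243 and 0.0190 with solvent and 0.0266 and 0.0482 with MS-275 and did not pass. In the mitochondrial folate cycle 1 of 7 rose and 1 fell. Mthfd1l, the synthetase that releases formate from mitochondria, had 0.392 and 0.235 with solvent and 0.216 and 0.0676 with MS-275 and fell by 1.28 (limma with the block, adjusted p = 0.00114). With Mthfd2 it forms the mitochondrial path from folate-bound carbon to formate, and both were lower in each pair. Dmgdh, the dimethylglycine dehydrogenase, rose by 1.54 from 0.00721 and 0.00391 with solvent to 0.0412 and 0.0149 with MS-275 (limma with the block, adjusted p = 0.00201).

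Among genes of folate uptake and retention, 1 of 6 rose and 2 fell. Folr1, a folate receptor, had values of 0.143 and 0.170 with solvent and 0.0735 and 0.0437 with MS-275 and fell by 1.38 (limma with the block, adjusted p = 0.00101). Folr2, a second receptor, had 0.0222 and 0.0117 with solvent and 0.00607 and 0.00473 with MS-275 and fell by 1.04 (adjusted p = 0.0171 in the same fit). Ggh, which removes glutamates from stored folate, rose. In thymidylate and deoxynucleotide supply 1 of 6 fell and 0 rose, with a median of -0.51. Dctd, the dCMP deaminase that feeds Tyms, had 0.385 and 0.330 with solvent and 0.247 and 0.169 with MS-275 and fell by 0.79 (limma with the block, adjusted p = 0.0168). Dtymk, the thymidylate kinase, had 0.712 and 2.20 with solvent and 0.609 and 1.16 with MS-275 and did not pass.

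In de novo purine synthesis 0 of 6 passed on the values, and 4 were lower in both pairs, with a median of -0.35. Paics had values of 0.677 and 2.14 with solvent and 0.542 and 0.926 with MS-275, and Atic, which closes the purine ring, had 0.504 and 0.714 with solvent and 0.399 and 0.367 with MS-275. On distinct positions limma-voom without a block called 2 of the 6 lower, these same genes. In the methionine cycle 3 of 11 rose and 0 fell. Bhmt2, a betaine-homocysteine methyltransferase relative, had 0.00590 and 0.00134 with solvent and 0.0193 and 0.0137 with MS-275, a rise of 1.36 (limma with the block, adjusted p = 0.00250). Gnmt, the glycine methyltransferase, had 0.0316 and 0.0159 with solvent and 0.0643 and 0.0292 with MS-275, a rise of 0.81 (adjusted p = 0.0497 in the same fit). The third that rose was Bhmt.

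**Figure D5:**
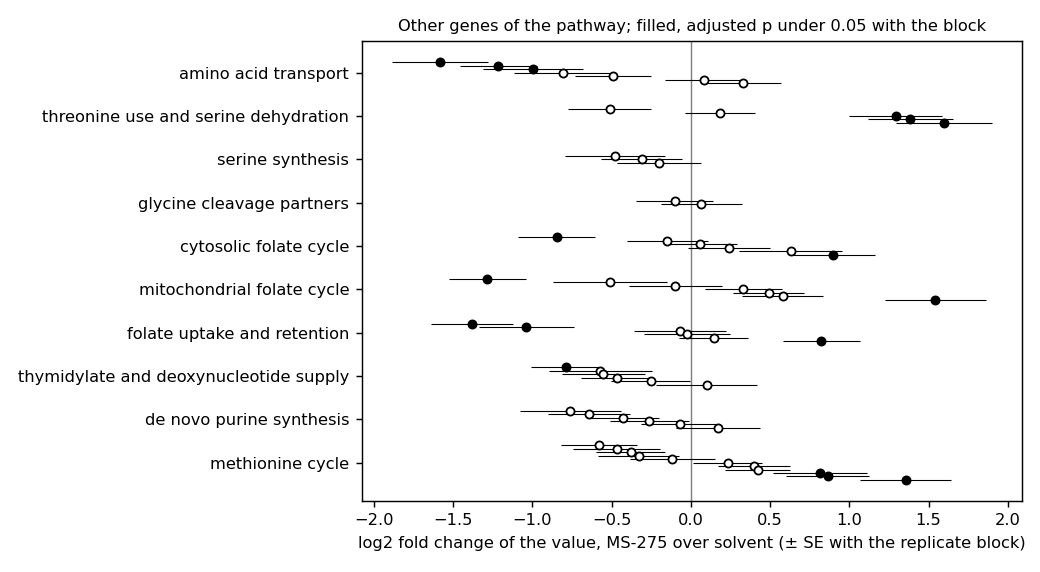
Log2 fold change of the value, MS-275 over solvent (horizontal axis), for 59 further genes by list, with the standard error of the fit with the replicate block as bars; filled points had an adjusted p under 0.05 in that fit. There are 9 filled points on the right and 8 on the left, and none of them passed on the values without the block.

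The genes whose pattern was most like that of Tdh were sought among 14739 others with a mean value of at least 0.01, by the Euclidean distance between log2 values centred on each gene's mean over the 4 libraries. The closest were LOC100502760 at a distance of 0.297, Socs2 at 0.414, Brpf3 at 0.435, Gtf2i at 0.539 and 2410007B07Rik at 0.578, where the median distance was 2.72. Socs2, a suppressor of cytokine signalling, had values of 0.418 and 0.836 with solvent and 0.135 and 0.102 with MS-275. Brpf3, a scaffold protein of histone acetyltransferase complexes, had 0.189 and 0.358 with solvent and 0.0774 and 0.0540 with MS-275. Like Tdh, both were higher in solvent replicate 2 than in solvent replicate 1 and lowest in MS-275 replicate 2. This likeness follows from their choice by distance over the same 4 libraries. Of the other enzymes Shmt1 was nearest, at a distance of 1.74 and a rank of 788, and Gldc the farthest, at 2.54 and a rank of 5710.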

How the data were processed

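RNA-seq of 2 solvent and 2 MS-275 libraries was used. As deposited by the authors, the values are a normalized expression signal per gene, made with Genomatix from 36-base reads mapped to mm9, and not counts. The aligner and the formula are not given in the sources used here, so the depth behind a value is unknown. The deposited alignments are 35 bases long, and the ratios in the deposited pairwise tables were not used.

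The members and gene lists were chosen with earlier results of these data known. Genes that reached 0.001 in 2 or more libraries (20336 of 28250) were fitted as log2(value + 0.005), which understates changes of low genes, with limma 3.58.1 (lmFit, eBayes with a trend) in R 4.3.3, and p-values were adjusted by Benjamini-Hochberg over all genes (threshold 0.05). Fits with a replicate block were run beside it. The pairing comes from the column headers. Deviations from the group means correlated between same-numbered libraries at 0.764 for the values (20336 genes) and at 0.517 for distinct positions (16994 genes). Same-numbered libraries were also alike in repeats and mitochondrial values, and the part of this in the correlation was not tested. The fold rule set values under 0.001 to 0.001. Distinct alignment positions were counted on GENCODE M1 exons outside bases shared by genes (Python 3.11.15, numpy 2.4.6, pandas 2.3.3, numba 0.67.0), and the 16994 genes that reached 10 in 2 or more libraries were fitted with limma-voom. Exon positions totalled 5608253 to 7346036 per library. Repeated windows were sought by exact match in mm9, and promoters came from RefSeq (GRCm38.p6). Named genes were the 9 members, in each pathway list the 2 genes with the largest absolute log2 fold change and a mean value of at least 0.01, and the 5 genes closest to Tdh. Mtmr9, Fam167a, Tars and the other genes, which passed, were named after their values were seen. Alternatives were other pseudocounts, filters and scalings, eBayes without a trend, the block and each library left out. The limma fits of the values, with and without the block, were tested on simulated data, and no result here rests on that. One item of the pathway lists is not reported here.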

Additional observations from a re-analysis of the deposited data

How the results depend on the processing

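The log2 fold change of Tdh stayed below 0 under all 18 alternatives, from -2.77 to -1.54, and both ends are from fits without 1 library. Shmt1, Shmt2, Mthfd2 and Tyms were below 0 under the same alternatives, whereas Gldc changed sign in 5, Amt in 1 and Mthfd1 in 6 of 18. Counts of calls moved most with the pairing. Without a block 1 gene of 20336 passed, and with the replicate block 5591 passed. The block gave 5518 with median-ratio scaling, 5509 with quantile normalization, 5436 with a pseudocount of 0.001 and 4948 with 0.02. Limma-voom on distinct positions gave 3452, and 7719 with the block. Without a block, a mean value of at least 0.01 gave 531, and pseudocounts of 0.001 and 0.02, no filter, median-ratio scaling, quantile normalization and eBayes without a trend each gave 0. Leaving out 1 library gave 0 to 189. In the 8 limma settings with 0 calls, 2886 to 4105 genes had an unadjusted p under 0.05. A lone library left in a group is assumed there to vary like the others.

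Of the pathway genes, 0 passed without a block, and 17 passed with the replicate block and also with the block and a pseudocount of 0.001. The block gave 21 with median-ratio scaling, 20 with quantile normalization and 16 with a pseudocount of 0.02. Limma-voom gave 17, and 35 with the block. Leaving out 1 library gave 0 in each case. Of the genes called with the block, 76.5% were higher, against 63.7% with median-ratio scaling and 51.3% with quantile normalization. Under the fold rule 3831 genes passed in either direction, 1625 with values under 0.01 set to 0.01, 1997 at 3-fold, where Tdh no longer passed, and 6414 at 1.5-fold. The cause of these shifts was not tested. With 2 libraries per group, differences of the size seen for Shmt1, Shmt2, Mthfd2 and Tyms lay near 1 standard error of the fit without a block.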

Other observations

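In the pairwise table deposited for the second pair, the value entered for Tdh with solvent reads 156.916 with its decimal comma, which is 100 times the 1.56916 of the profile of solvent replicate 2. Of 19483 entries in that column with a profile value above 0, 642 were 10 or more times the profile value by a whole power of 10 (within 0.001 on the log10 scale), and 633 of the 641 entries with a profile value of at least 1 were among them. No value of that table was used above.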
